A study of Mus musculus with 4 samples.

Results

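Proliferating crypt epithelial cells are the dividing cells of the lower colonic crypt that replace the lining above them. They were taken from droplet single-cell RNA sequencing of mouse colon, in 2 libraries from animals treated with the liver toxin carbon tetrachloride (CCl4) and 2 control libraries. A cell was counted as one when at least 0.3% of its counts came from 6 epithelial genes, at least 3 of 7 proliferation genes (Mki67, Top2a, Cdk1, Ccnb1, Ube2c, Birc5 and Cenpf) were detected, and goblet and mature colonocyte genes stayed under set limits. The limits were under 0.3% of counts from Muc2, Agr2, Spink4 and Fcgbp, and at most 4 of 8 mature colonocyte genes detected. The leucocyte gene Ptprc and the fibroblast gene Col1a1 had to be at 0. The cells were thus selected on counts of these 27 genes. The selection found 591 cells among 38852 cells kept in the series, 219 and 174 in the CCl4 libraries and 102 and 96 in the control libraries.

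The CCl4 mice were 6 weeks old at the start and were treated for 6 weeks, and no age, dose, vehicle, strain or sex was recorded for either group beyond this. No duration or age was recorded for the controls. How many animals went into a library, or whether libraries of a group share animals, is not stated either, so p-values measure the spread between libraries, which may be technical. The state of the liver was not measured in these libraries.

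A dividing cell copies its DNA in S phase, passes through G2 and separates its chromosomes in mitosis. Histone genes of the replication-dependent clusters are switched on in S phase to package the new DNA, while genes such as Ube2c and Top2a peak in G2 and mitosis. In the crypt, stem cells at the base, held by Wnt signals, feed a zone of dividing progeny. These cells leave the cycle as they become absorptive colonocytes or secretory goblet, enteroendocrine and tuft cells.

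The promoters of 2 proliferation markers and of the 2 histone genes that changed are shown because these genes mark successive phases of the cycle, and because the CCAAT element is a known feature of many promoters of both kinds. The windows run from 250 bases before to 50 after the annotated start and come from RefSeq on GRCm38.p6. Each is written 5′ to 3′ on the strand of the gene. Capitals mark CCAAT, read on either strand.
Ube2c, chr2:164769679-164769978, plus strand: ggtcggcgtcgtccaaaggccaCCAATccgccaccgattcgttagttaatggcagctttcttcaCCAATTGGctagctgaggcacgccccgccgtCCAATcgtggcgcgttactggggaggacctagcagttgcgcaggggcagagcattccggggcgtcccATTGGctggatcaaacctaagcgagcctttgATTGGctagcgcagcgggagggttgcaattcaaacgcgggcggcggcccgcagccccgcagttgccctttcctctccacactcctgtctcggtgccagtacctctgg
Top2a, chr11:99024140-99024439, minus strand: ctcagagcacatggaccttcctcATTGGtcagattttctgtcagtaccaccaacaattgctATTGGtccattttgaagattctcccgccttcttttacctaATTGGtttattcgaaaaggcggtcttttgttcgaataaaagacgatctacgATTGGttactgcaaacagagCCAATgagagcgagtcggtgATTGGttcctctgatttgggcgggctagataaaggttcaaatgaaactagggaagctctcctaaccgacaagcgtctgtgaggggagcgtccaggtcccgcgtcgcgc
Hist1h1a, listed by RefSeq as H1f1, chr13:23763418-23763717, plus strand: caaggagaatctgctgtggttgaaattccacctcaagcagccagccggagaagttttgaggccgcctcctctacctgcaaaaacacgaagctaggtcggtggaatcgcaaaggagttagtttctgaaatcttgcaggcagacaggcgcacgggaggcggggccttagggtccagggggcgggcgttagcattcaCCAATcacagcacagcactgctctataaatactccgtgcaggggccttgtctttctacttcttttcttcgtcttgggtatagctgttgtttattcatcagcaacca
Hist1h4c, listed by RefSeq as H4c3, chr13:23698409-23698708, minus strand: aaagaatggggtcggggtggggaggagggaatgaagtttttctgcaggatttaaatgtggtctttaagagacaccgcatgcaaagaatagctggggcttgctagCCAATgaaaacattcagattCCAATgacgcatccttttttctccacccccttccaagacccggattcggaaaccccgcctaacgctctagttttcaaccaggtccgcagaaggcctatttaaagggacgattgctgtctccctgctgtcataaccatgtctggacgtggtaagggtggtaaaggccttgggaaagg
The Ube2c and Top2a windows held 6 matches to CCAAT each, the Hist1h4c window 2 and the Hist1h1a window 1. Among all 32851 promoters of the table, 37.4% held at least 1 match. TTTGAA, the core of the cell cycle homology region found in many G2 genes, was matched once in Ube2c and 2 times in Top2a on either strand, and in neither histone window, against 17.9% of all promoters. A match describes the letters and does not show that a factor binds there.

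The selection used the level of the 7 proliferation genes, so their values describe the cells and test nothing. Mki67, which encodes the Ki-67 protein of dividing nuclei, was detected in 85.6% of the 591 cells, and Ube2c, which helps the anaphase-promoting complex to destroy cyclins, in 83.6%. Top2a, the topoisomerase that untangles sister chromosomes, was detected in 71.7% and the kinetochore gene Cenpf in 62.4%. Birc5, the survivin of the chromosomal passenger complex, was detected in 55.2%, the mitotic kinase Cdk1 in 49.7% and its cyclin Ccnb1 in 26.1%.

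Markers that the selection did not use were present in the same cells. Cdca8, a partner of survivin, was detected in 42.1%, Ccna2, the cyclin of S and G2 phases, in 38.2%, and the spindle genes Nusap1 and Tpx2 in 33.7% and 28.3%. The mitotic kinases Plk1 and Aurkb were detected in 31.3% and 18.4%. In 4171 non-cycling crypt cells, which met the same limits with 0 of the 7 genes, these 6 markers were detected in 0.647% to 2.01% of cells. In 393 T cells with 0 of the 7 genes, where they should be absent, they were detected in 0.254% to 2.29%. Median depth was 8585 and 7011 counts per proliferating cell in the CCl4 libraries and 7124 and 7311 in the control libraries. It was 3858 counts over these T cells, and 3444 and 3263 counts in non-cycling cells of the CCl4 libraries and 3264.5 and 3360 in those of the control libraries. Epithelial genes outside the selection were detected as well. Elf3, an epithelial transcription factor, was found in 81.0% of proliferating cells against 4.33% of T cells, the claudin Cldn3 in 70.4% against 2.54%, and the colon homeobox gene Cdx1 in 70.1% against 2.29%. E-cadherin, Cdh1, was found in 62.9% against 8.65%. Markers of proliferation and of epithelium outside the selection were thus both present. The non-cycling and T cells set beside them had been required to hold 0 of the 7 genes. The T cells were also chosen with Ptprc and Cd3e detected and under 0.3% of counts from the 6 epithelial genes. That choice partly sets the epithelial contrast with them.

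Stem and progenitor genes differed widely in how many of these cells held them. After each cell was thinned to 2000 counts, Lgr5, the receptor that marks crypt base stem cells, was detected in 1.54% of proliferating cells, against 1.38% of non-cycling cells and 0 of 350 T cells, which allows a share of up to 0.857%. Before thinning, Lgr5 was detected in 3.38% of proliferating cells. Axin2, a Wnt target, was at 5.31% in proliferating cells, 3.47% in non-cycling cells and 5.43% in T cells, and before thinning at 15.9% in proliferating cells and 9.67% in T cells. Its share in proliferating cells was thus not above that in T cells at equal depth. Smoc2, another gene of stem cells, was at 3.08% in proliferating cells, 1.99% in non-cycling cells and 0.571% in T cells. Ascl2, also a stem-cell gene, was lower in proliferating cells, at 0.342% against 0.506% of non-cycling cells and 0 of 350 T cells. Both of its shares lie under the 0.857% that this 0 allows. Before thinning Ascl2 was at 1.35% in proliferating and 0.887% in non-cycling cells. The Wnt-driven receptor Ephb2 was at 10.6% in proliferating cells, 8.86% in non-cycling cells and 0.857% in T cells, and Cdca7 at 5.48%, 4.58% and 1.43%. Sox9, a crypt progenitor factor, was detected in 24.1% of proliferating cells, 17.7% of non-cycling cells and 0.857% of T cells. Hes1, a target of Notch that favours the absorptive fate, was at 33.6% in proliferating cells, 28.2% in non-cycling cells and 6.86% in T cells. Atoh1, which commits cells to the secretory fate, was detected before thinning in 0.677% of proliferating cells and 0.509% of T cells, so it was not above background. Unthinned, proliferating cells held Sox9 in 50.6%, Hes1 in 70.7%, Ephb2 in 28.3%, Cdca7 in 20.3% and Smoc2 in 9.31%. Thinning left out 4 and 2 proliferating cells of the CCl4 libraries and 1 and 0 of the control libraries for low depth, and 7 and 9 T cells of the CCl4 libraries and 14 and 13 of the control libraries. It left out more of the non-cycling cells, of which 2967 of 4171 remained. The thinned shares of non-cycling cells thus cover only the deeper of them.

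**Figure D1:**
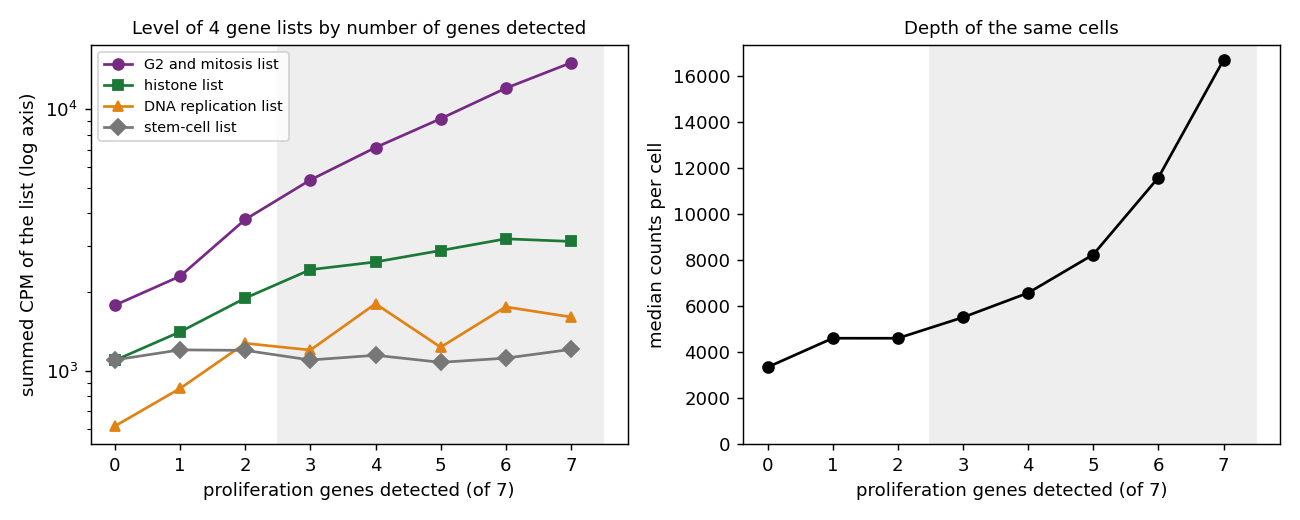
Cells of all 4 libraries that met the other limits, by how many of the 7 proliferation genes were detected, with summed CPM of 4 gene lists on a log axis (left) and median counts per cell (right). The shaded range holds the 591 cells. The list of G2 and mitosis genes climbed to 15036 CPM at 7 genes, while the stem-cell list lay between 1079 and 1209 CPM in the shaded range.

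The 591 cells differed in how many of the 7 genes they held, and depth moved with that number. The 205 cells with 3 of the 7 genes had a median of 5507 counts and the 45 cells with all 7 had 16677. Over the same cells, the summed level of a list of 69 genes of G2 and mitosis that holds none of the 7 was 5366 CPM (counts scaled to a common library total) at 3 genes and 15036 CPM at 7. Just outside the threshold, 353 cells with 2 genes had 3790 CPM, and cells with 0 genes had 1783 CPM. The list of 44 DNA replication genes went another way. It lay between 1202 and 1806 CPM from 3 to 7 genes with no steady order, against 616 CPM in cells with 0 genes. Histone transcripts lay between 2437 and 3197 CPM from 3 to 7 genes, against 1098 CPM at 0 genes. Of these 3 lists, that of G2 and mitosis spanned the widest range over the 591 cells. The cells were ordered by genes of the selection, among them Ube2c and Top2a of G2 and mitosis, so this range is a description only. Depth rose with the same number of genes, and its part in this was not tested. The other limits cut through fewer cells. With 0.3% to 0.4% of counts from epithelial genes there were 24 selected cells, against 13 left out at 0.2% to 0.3%. With 0.2% to 0.3% from goblet genes there were 10 selected cells, against 6 left out at 0.3% to 0.4%. With 4 mature genes there were 64 selected cells, against 58 left out with 5.

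Set against the non-cycling cells of the same libraries, the proliferating cells had more of nearly the whole division programme. This contrast is the one the selection used, so it is given without a test. All 66 measurable genes of the G2 and mitosis list had a log2 ratio of proliferating over non-cycling cells above 0, with a median of 3.46, as did all 32 histone genes (median 2.34) and all 43 DNA replication genes (median 1.49). The median of all 12999 genes was -0.01. Ccna2 had the largest ratio among abundant genes, with 137 and 112 CPM in CCl4 and 102 and 78.3 CPM in control proliferating cells, against 1.92 and 2.45 CPM in CCl4 and 1.46 and 4.90 CPM in control non-cycling cells. It was followed by Cdca3 (log2 ratio 4.60), Racgap1, which places the cleavage furrow (4.48), the motor of kinetochores Cenpe (4.39) and the replication clamp partner Pclaf (4.32).

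Genes of nucleotide supply were above 0 in 15 of 18 with a median of 0.58, and ribosome biogenesis genes in 28 of 32 with a median of 0.31. The stem-cell list was split, with 14 of 21 above 0 and a median of 0.03. Absorptive products lay below 0 in 33 of 40, with a median of -0.50. The lowest abundant genes were the peptide hormones and granins of enteroendocrine cells, among them Pyy, Gcg, Chga and Chgb, with Chgb at 26.8 CPM in proliferating and 1494 CPM in non-cycling cells. The non-cycling cells thus include enteroendocrine transcripts, since the selection set no limit on them.

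The first question between groups was whether CCl4 changed how many crypt cells were dividing. Proliferating cells were 5.46% (95% exact Clopper-Pearson interval 4.77 to 6.20) and 4.68% (4.02 to 5.41) of epithelial cells in the CCl4 libraries, against 5.59% (4.58 to 6.74) and 5.39% (4.39 to 6.54) in the control libraries. These intervals cover counting error only. The means were 5.07% ± 0.549 in CCl4 and 5.49% ± 0.138 in control libraries (SD, n = 2 each), a difference of -0.42 percentage points. CCl4 library 1 lay between the control libraries and CCl4 library 2 below both, and the groups overlapped (two-sided exact permutation test p = 0.667, where 0.333 is the smallest p that 2 against 2 allows). The difference was -0.03 points without CCl4 library 2 and -0.81 without CCl4 library 1. In 3 of the other forms of the share both CCl4 libraries lay below both controls, each with p = 0.333 in the same exact test. Among epithelial cells within the goblet and mature limits, proliferating cells were 9.99% and 8.74% in CCl4 and 11.1% and 10.8% in control libraries. After thinning to 2000 counts they were 2.85% and 2.75% of epithelial cells in CCl4 and 3.59% and 3.11% in control libraries. With the goblet and mature limits dropped they were 7.65% and 7.10% in CCl4 and 8.27% and 7.69% in control libraries. In the remaining forms among epithelial cells the groups overlapped. When 4 or more of the 7 genes were required, shares were 3.49% and 3.07% in CCl4 and 4.16% and 3.14% in control libraries. Without doublet candidates they were 5.545% and 4.71% in CCl4 and 5.552% and 5.49% in control libraries. Under stricter limits of 500 genes and 10% mitochondrial counts they were 5.14% and 2.92% in CCl4 and 4.92% and 4.24% in controls. With 2 libraries a group, none of these forms could reach a p of 0.05.

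**Figure D2:**
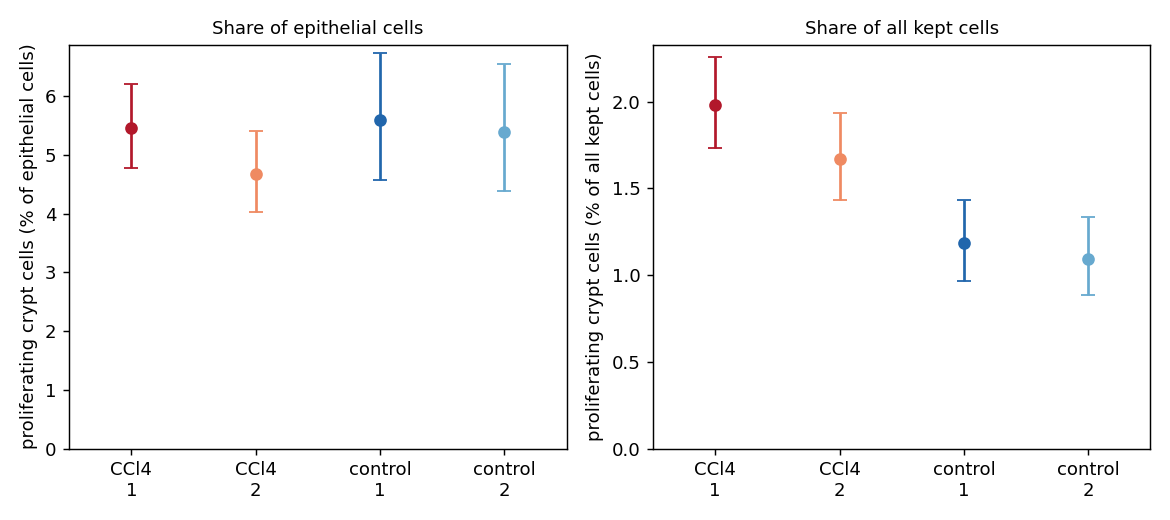
Proliferating crypt cells in each library as a percentage of epithelial cells (left) and of all kept cells (right); points are libraries and bars are exact Clopper-Pearson intervals. Left, the CCl4 libraries at 5.46% and 4.68% overlap the control libraries at 5.59% and 5.39%. Right, both CCl4 libraries lie above both control libraries.

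The same cells as a share of all kept cells were 1.98% and 1.67% in the CCl4 libraries, against 1.18% and 1.09% in the control libraries, with p = 0.333 in the exact permutation test. The groups did not overlap there. The epithelium itself was the larger part of the CCl4 libraries, with 4014 of 11045 and 3718 of 10416 kept cells, against 1826 of 8620 and 1781 of 8771 in the control libraries. The cause of this was not tested. The share of the proliferating cells that had at least 6 of the 7 genes was 22.4% ± 2.48 in CCl4 and 21.8% ± 4.51 in control libraries (SD, n = 2 each). Among epithelial cells with 3 or more of the 7 genes, goblet-rich ones that the limit left out were 22.2% ± 2.86 in CCl4 and 20.4% ± 3.02 in control libraries (SD, n = 2 each).

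The second question was whether the dividing cells themselves differed. Counts were summed over the proliferating cells of each library and 9647 genes were tested with edgeR's quasi-likelihood test and Benjamini-Hochberg adjustment at 0.05. The sums held 2503826 and 1630887 counts in the CCl4 libraries and 907764 and 886861 in the control libraries. In all, 35 genes passed, 0.363% of those tested. Of these, 13 were higher in CCl4 (0.135%) and 22 were lower (0.228%). Among them, Muc2 and Cyp2c55 were part of the selection, which bounds their level, so they are described only, and 33 lay outside it. None of the 66 tested genes of G2 and mitosis, 43 of DNA replication, 18 of nucleotide supply, 28 of G1 control or 19 of stem cells passed. Their median log2 changes of CCl4 over control were -0.07, -0.09, -0.05, -0.10 and 0.22, beside -0.0008 over all tested genes.

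**Figure D3:**
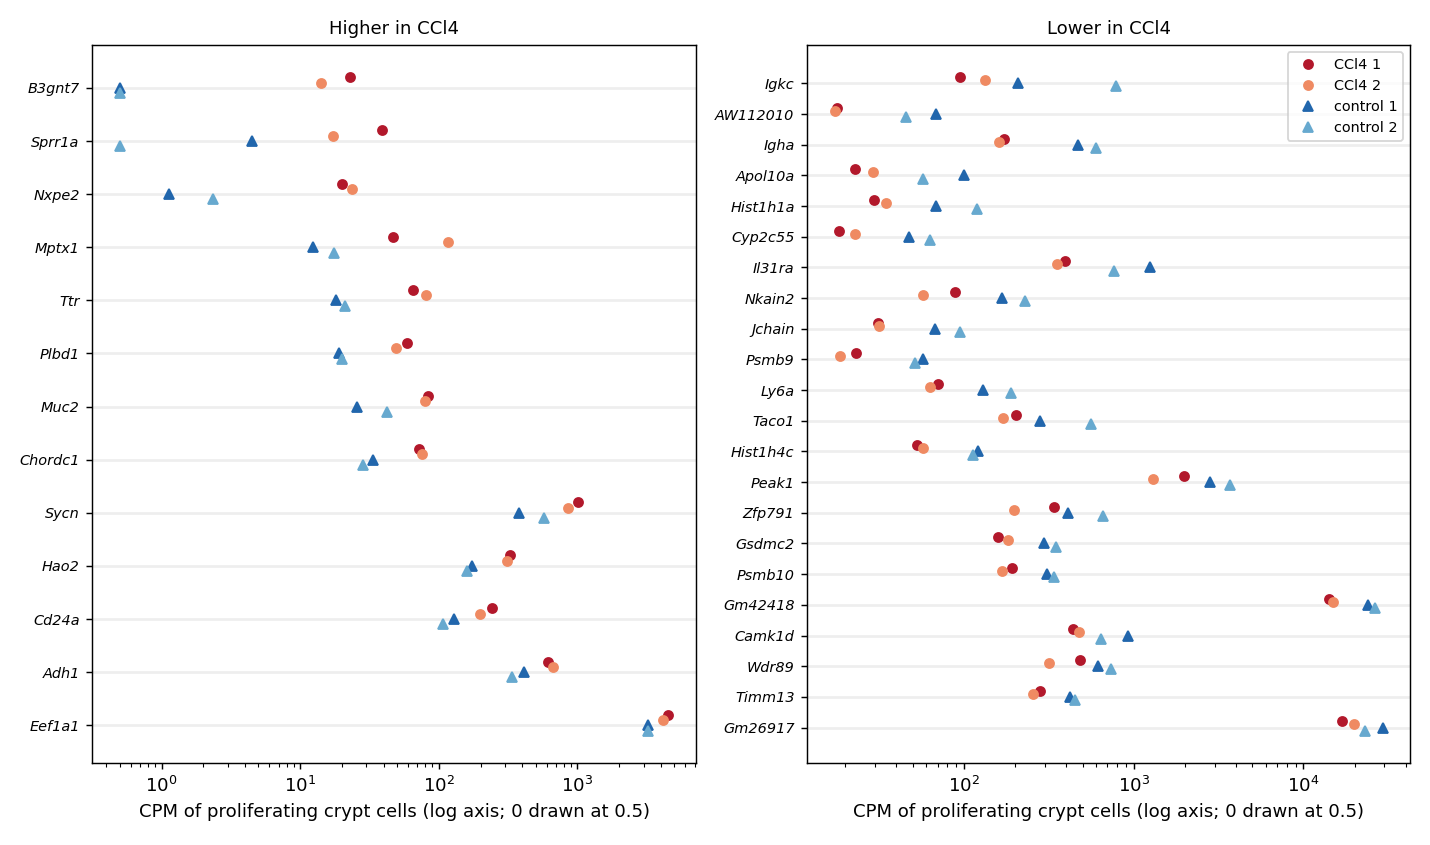
CPM in the proliferating crypt cells of each library for the 13 genes that were higher in CCl4 (left) and the 22 that were lower (right), on log axes; circles are CCl4 libraries, triangles control libraries, and each group is n = 2. Circles and triangles do not overlap in any row, and the rows are genes picked by the test between these groups.

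Mki67 had 372 and 367 CPM in CCl4 proliferating cells, against 389 and 399 CPM in control cells, and Cdk1 had 139 and 144 CPM in CCl4 against 161 and 121 CPM in control cells. Ube2c had 317 and 341 CPM in CCl4 and 508 and 417 CPM in control cells. Top2a had 303 and 349 CPM in CCl4 and 487 and 388 CPM in control cells. These are genes of the selection, and their levels are a description. Outside the selection, Ccna2 had 135 and 112 CPM in CCl4 and 102 and 78.9 CPM in control cells (log2 0.45, edgeR adjusted p = 0.486). The replication clamp Pcna had 145 and 109 CPM in CCl4 and 122 and 147 CPM in control cells, with overlapping groups. Among stem-cell genes, Sox9 had 206 and 170 CPM in CCl4 and 177 and 129 CPM in control cells, and Lgr4, a receptor related to Lgr5, had 63.9 and 63.8 CPM in CCl4 and 85.5 and 75.3 CPM in control cells. Neither passed.

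Of the transcripts tied to the cycle, 2 histone genes fell. Hist1h1a, a linker histone at chr13:23763666-23764406 (GRCm38, GENCODE M21), had 29.6 and 34.7 CPM in CCl4 proliferating cells, against 68.7 and 119 CPM in control cells. Both CCl4 libraries lay below both controls, and the log2 change was -1.55 ± 0.27 (SE, edgeR adjusted p = 0.00853). Hist1h4c, a core histone H4 gene at chr13:23697635-23698454, had 53.2 and 57.6 CPM in CCl4 and 122 and 113 CPM in control cells (log2 -1.09 ± 0.20, SE, edgeR adjusted p = 0.0133). Without control library 2, the change of Hist1h1a was -1.10 with an edgeR adjusted p of 0.0992. That of Hist1h4c was -1.01 (edgeR adjusted p = 0.140) without CCl4 library 1 and -1.03 (edgeR adjusted p = 0.0894) without control library 1. These are the 2 of 29 tested genes of the histone list that passed, both lower, beside 0.228% of all tested genes called lower. Their promoters are the histone sequences printed above.

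Of the 29 genes, which include a few histone chaperones and centromere genes, 25 had a log2 change below 0, beside 4833 of all 9647, with a list median of -0.67 beside -0.0008. At an unadjusted p under 0.05, 18 were lower and 0 higher, where 5.06% of all tested genes were lower at that p and 4.33% higher. Most of these did not pass the adjustment. Hist1h4h had 48.8 and 47.7 CPM in CCl4 and 87.8 and 95.4 CPM in control cells (log2 -0.92, edgeR adjusted p = 0.0975). Hist1h1e had 47.6 and 54.5 CPM in CCl4 and 86.7 and 74.2 CPM in control cells (log2 -0.66, edgeR adjusted p = 0.339). The 7 tested genes without Hist names ranged from -0.50 to 0.54, and 2 of them were lower at an unadjusted p under 0.05. Among these, H2afz had 713 and 665 CPM in CCl4 and 691 and 575 CPM in control cells (log2 0.12), and H2afv had 371 and 352 CPM in CCl4 and 364 and 334 CPM in control cells (log2 0.05).

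Split after the values were seen, the 22 tested genes with Hist names had a median of -0.84 and the other 7 of -0.14. Over the 27 genes with Hist names, the summed level was 1026 and 1050 CPM in CCl4 proliferating cells, against 1376 and 1734 CPM in control cells. In non-cycling cells the same sum was 445 and 443 CPM in CCl4 and 555 and 546 CPM in control libraries, so CCl4 libraries were lower there too. Over the 24 genes of the whole histone list tested in non-cycling cells, the median was -0.23. Hist1h1a itself was not lower there, with 6.00 and 4.51 CPM in CCl4 and 4.06 and 5.73 CPM in control non-cycling cells (log2 0.11). Hist1h4c had a log2 change of -0.46 in non-cycling cells (edgeR adjusted p = 0.426). The change of Hist1h1a differed by -1.62 between the cell classes (edgeR adjusted p = 0.734), so a difference between classes was not shown. Histone messages of the clusters mostly lack poly(A) tails, and the library captured polyadenylated RNA, so these levels are of the captured part. Several cluster genes are near-identical copies, and counts can be split among them.

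**Figure D4:**
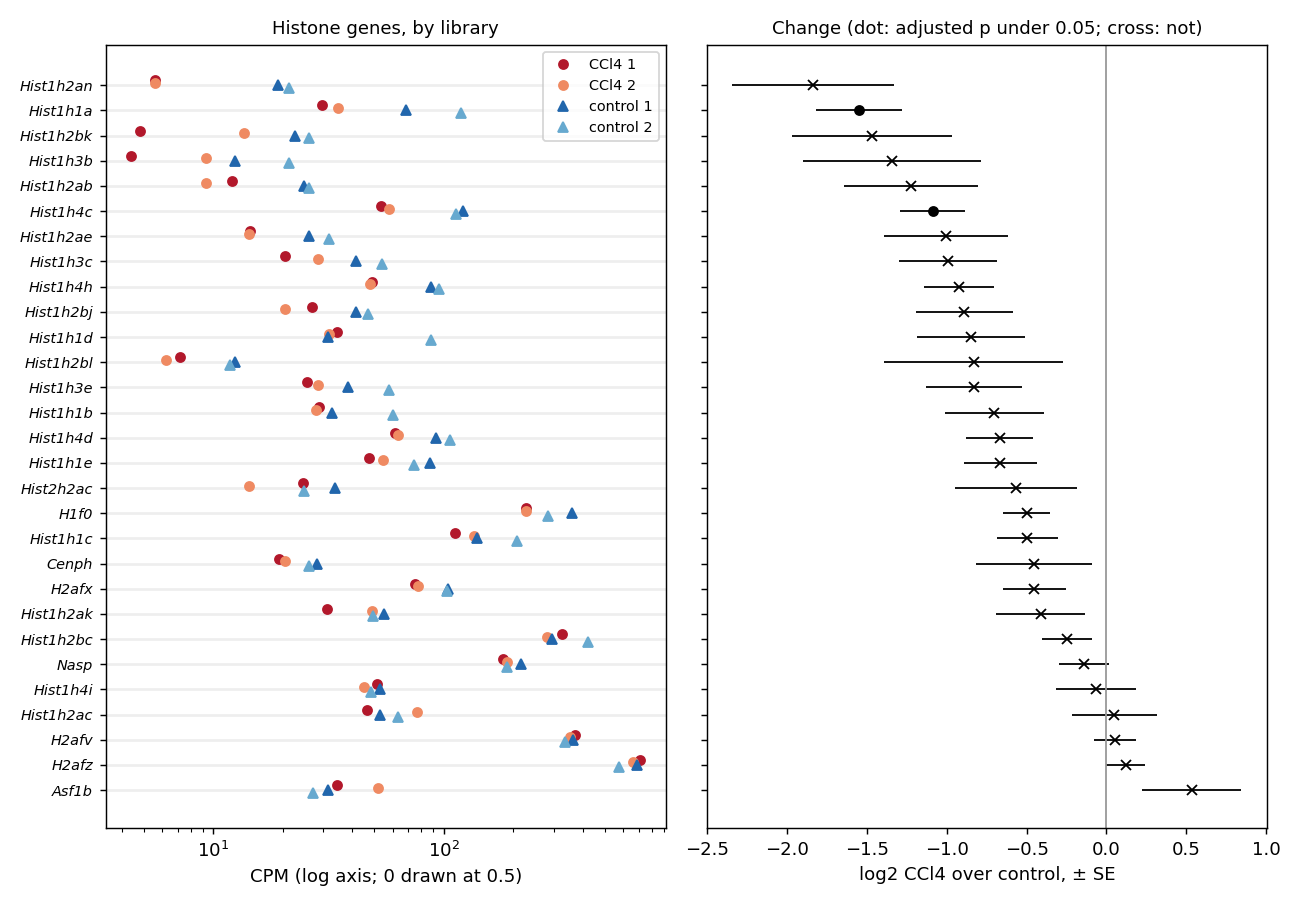
The 29 tested genes of the histone list in proliferating crypt cells, with CPM of each library on a log axis (left, circles CCl4, triangles control) and the log2 change of CCl4 over control with its standard error (right, dots for adjusted p under 0.05, crosses otherwise). The points of 25 of 29 genes lie left of 0, and H2afz and H2afv lie near it.

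Of the genes of antigen processing for MHC class I, 2 fell. Psmb10 and Psmb9 encode catalytic subunits of the immunoproteasome, a form of the proteasome that favours peptides suited to display on MHC class I. Psmb10 at chr8:105935735-105938444 had 191 and 168 CPM in CCl4 proliferating cells, against 310 and 340 CPM in control cells, with no overlap (log2 -0.85 ± 0.15, SE, edgeR adjusted p = 0.00853). Psmb9 at chr17:34181987-34187764 had 23.2 and 18.6 CPM in CCl4 and 57.4 and 51.8 CPM in control cells (log2 -1.37 ± 0.29, SE, edgeR adjusted p = 0.0411). Without CCl4 library 2, the change of Psmb10 was -0.75 (edgeR adjusted p = 0.123). Psmb9 no longer passed without doublet candidates, and its edgeR adjusted p was 0.103, 0.264 and 0.175 without CCl4 library 1, CCl4 library 2 and control library 1.

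Of 20 tested genes of MHC class I presentation, these 2 passed, both lower, beside 0.228% of all tested genes. A log2 change below 0 was found for 18 of the 20, beside 4833 of all 9647, with a median of -0.40. The third catalytic subunit, Psmb8, had 41.6 and 50.8 CPM in CCl4 and 76.5 and 106 CPM in control cells (log2 -0.99, edgeR adjusted p = 0.0991). Tap1, which carries peptides into the endoplasmic reticulum, had 7.59 and 9.91 CPM in CCl4 and 27.0 and 27.1 CPM in control cells (log2 -1.64, edgeR adjusted p = 0.163). Tap1 and Psmb9 are divergent neighbours, and the promoter windows chr17:34187306-34187605 and chr17:34187281-34187580 overlap. The class I chains themselves had smaller changes. B2m had 313 and 315 CPM in CCl4 and 338 and 310 CPM in control cells (log2 -0.04), and H2-K1 had 233 and 273 CPM in CCl4 and 314 and 271 CPM in control cells (log2 -0.22). The list of MHC class II presentation went the other way in proliferating cells. All 4 tested members had a log2 change above 0, beside 4814 of all 9647 genes, with a median of 0.60 and 0 past the threshold. The whole list summed to 156 and 121 CPM in CCl4 and 89.2 and 104 CPM in control libraries. In non-cycling cells its median was -0.37 over 7 tested genes.

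Among 30 tested interferon-response genes, 3 passed and all were lower, beside 0.228% of all tested genes. A log2 change below 0 was found for 20 of the 30, beside 4833 of all 9647, and the median was -0.21. AW112010, a transcript induced by interferon gamma, had 18.0 and 17.3 CPM in CCl4 and 68.7 and 45.9 CPM in control cells (log2 -1.69 ± 0.31, SE, edgeR adjusted p = 0.0119). Apol10a, of the apolipoprotein L family, had 22.8 and 29.1 CPM in CCl4 and 100.2 and 57.7 CPM in control cells (log2 -1.62 ± 0.29, SE, edgeR adjusted p = 0.0100). Ly6a, the surface antigen Sca-1, had 70.3 and 63.2 CPM in CCl4 and 129 and 190 CPM in control cells (log2 -1.25 ± 0.20, SE, edgeR adjusted p = 0.00548). Ly6a no longer passed without doublet candidates. Irf1, a factor that switches on immunoproteasome genes, had 103 and 84.3 CPM in CCl4 and 134 and 198 CPM in control cells (log2 -0.81, edgeR adjusted p = 0.107).

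T cell transcripts were near 0 in the summed proliferating cells, with a total over 16 markers of 5.59 and 4.91 CPM in CCl4 and 23.1 and 9.02 CPM in control libraries. Endothelial markers summed to 104 and 167 CPM in CCl4 and 249 and 211 CPM in control libraries. All 5 tested members had a log2 change below 0, beside 4833 of all 9647 genes, with 0 past the threshold and a median of -0.82. Both lists lay lower in CCl4, as did the interferon genes that passed, and their part in that change was not tested.

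Several genes of secreted proteins rose. Sycn, the zymogen granule protein syncollin at chr7:28540885-28542209, had 1014 and 852 CPM in CCl4 proliferating cells, against 377 and 576 CPM in control cells, with no overlap (log2 0.97 ± 0.15, SE, edgeR adjusted p = 0.00484). Mptx1, a mucosal pentraxin, had 46.4 and 116 CPM in CCl4 and 12.4 and 17.7 CPM in control cells (log2 2.40 ± 0.42, SE, edgeR adjusted p = 0.00853). CCl4 library 2 was the higher of the CCl4 libraries for Mptx1. Without it the change was 1.64 (edgeR adjusted p = 0.0885), and without control library 1 it was 2.16 (edgeR adjusted p = 0.167). Ttr, the thyroxine carrier transthyretin, had 65.5 and 80.5 CPM in CCl4 and 18.0 and 21.2 CPM in control cells (log2 1.89 ± 0.29, SE, edgeR adjusted p = 0.00432). Sycn and Ttr were the 2 genes that passed among 4 tested genes of deep-crypt secretory cells, beside 0.135% of all tested genes called higher. The lectins Reg3g and Reg3b of the same list had log2 changes of -1.58 and -1.42 (edgeR adjusted p = 0.261 and 0.575).

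The next 3 genes stand in no list. B3gnt7, a glycosyltransferase that extends sugar chains, had 57 and 23 counts in the CCl4 libraries and 0 in both control libraries, which is at least 11.6-fold higher when 3 counts over the control group are taken as the limit. Nxpe2 had 50 and 38 counts in CCl4 and 1 and 2 counts in control libraries, a ratio of 12.7 after scaling to the library totals (95% counting interval 4.22 to 62.9). Plbd1, a lysosomal phospholipase-like protein, had 59.1 and 48.9 CPM in CCl4 and 19.1 and 20.0 CPM in control cells (log2 1.47 ± 0.30, SE, edgeR adjusted p = 0.0343). Of 10 tested goblet products outside the selection, 0 passed. A change above 0 was found for 8 of them, beside 4814 of all 9647 genes, with a median of 0.46. At an unadjusted p under 0.05, 5 were higher and 0 lower, where 4.33% of all tested genes were higher at that p. Clca3b had 279 and 224 CPM in CCl4 and 170 and 137 CPM in control cells (log2 0.72, edgeR adjusted p = 0.0949).

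Goblet genes were part of the selection. Muc2, the gel-forming mucin, had 83.9 and 79.3 CPM in CCl4 and 25.9 and 42.4 CPM in control cells as a description (log2 1.26). When the goblet and mature limits were dropped, its log2 change turned to -0.09. Of the other higher genes, Sycn, Nxpe2, Plbd1, Hao2, Cd24a, Eef1a1, Chordc1 and Sprr1a also no longer passed there, while Ttr, Mptx1, B3gnt7 and Adh1 passed.

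Further genes that rose have unlike roles. Hao2, a peroxisomal hydroxyacid oxidase, had 328 and 309 CPM in CCl4 and 174 and 160 CPM in control cells (log2 0.93 ± 0.15, SE, edgeR adjusted p = 0.00548). Adh1, an alcohol and retinol dehydrogenase, had 617 and 665 CPM in CCl4 and 410 and 339 CPM in control cells (log2 0.77 ± 0.13, SE, edgeR adjusted p = 0.00663). Cd24a, a surface glycoprotein of crypt cells, had 241 and 199 CPM in CCl4 and 129 and 107 CPM in control cells (log2 0.90 ± 0.17, SE, edgeR adjusted p = 0.0179). Eef1a1, the elongation factor that brings transfer RNA to the ribosome, had 4524 and 4177 CPM in CCl4 and 3238 and 3220 CPM in control cells (log2 0.43 ± 0.08, SE, edgeR adjusted p = 0.0196).

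Chordc1, a partner of the chaperone Hsp90, had 71.5 and 75.6 CPM in CCl4 and 33.8 and 28.3 CPM in control cells (log2 1.24 ± 0.26, SE, edgeR adjusted p = 0.0359). It was the 1 of 17 tested heat shock genes that passed, beside 0.135% of all tested genes called higher. A change above 0 was found for 15 of the 17, beside 4814 of all 9647 genes, and the median was 0.17. Dnajb1 had 270 and 317 CPM in CCl4 and 161 and 215 CPM in control cells (log2 0.64, edgeR adjusted p = 0.140). No ribosome biogenesis gene passed of 31 tested, and the median was 0.21. At an unadjusted p under 0.05, 3 of the 31 were higher, where 4.33% of all tested genes were higher.

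Il31ra, a receptor subunit for interleukin-31 at chr13:112519898-112594360, fell in CCl4. It had 394 and 355 CPM in CCl4 proliferating cells, against 1256 and 763 CPM in control cells (log2 -1.43 ± 0.16, SE, edgeR adjusted p = 0.000115). Gsdmc2, a gasdermin with near-identical paralogs, had 159 and 182 CPM in CCl4 and 297 and 350 CPM in control cells (log2 -0.92 ± 0.15, SE, edgeR adjusted p = 0.00548). It was the 1 of 34 absorptive genes outside the selection that passed, beside 0.228% of all tested genes called lower. Cyp2c55, a cytochrome P450 of mature colonocytes that the selection used, had 18.4 and 22.9 CPM in CCl4 and 47.3 and 63.6 CPM in control cells as a description (log2 -1.44). The remaining genes that fell included Nkain2 (log2 -1.42), Peak1 (-0.98), Zfp791 (-0.98), Taco1 (-1.16), Camk1d (-0.78), Wdr89 (-0.75) and Timm13 (-0.71).

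Some transcripts of other cell types differed as well. Igha, the immunoglobulin A heavy chain of plasma cells, had 172 and 161 CPM in CCl4 proliferating cells and 467 and 598 CPM in control cells (log2 -1.67 ± 0.15, SE). Igkc had 94.3 and 134 CPM in CCl4 and 209 and 792 CPM in control cells (log2 -2.15 ± 0.35, SE), and Jchain had 31.2 and 31.6 CPM in CCl4 and 67.5 and 95.4 CPM in control cells (log2 -1.37 ± 0.25, SE). The whole list of 12 B and plasma cell markers summed to 325 and 343 CPM in CCl4 and 766 and 1481 CPM in control libraries. Of its 5 tested members, 3 passed as lower and 0 as higher, beside 0.228% of all tested genes called lower. Smooth muscle markers summed to 30.8 and 27.0 CPM in CCl4 and 20.9 and 428 CPM in control libraries, the last in control library 2. Macrophage and other myeloid markers summed to 202 and 90.7 CPM in CCl4 and 87.0 and 59.8 CPM in control libraries, and haemoglobins to 39.1 and 25.8 CPM in CCl4 and 11.02 and 10.15 CPM in control libraries, both without overlap. Enteroendocrine markers summed to 3.20 and 150 CPM in CCl4 and 39.7 and 2.26 CPM in control libraries. The part of these transcripts in the other changes was not tested.

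Gm42418 and Gm26917, adjacent non-coding genes on chromosome 17 that are known to gather ribosomal RNA reads, were the most abundant genes that fell. Gm42418 had 14155 and 15014 CPM in CCl4 and 23980 and 26439 CPM in control cells (log2 -0.79 ± 0.07, SE), and Gm26917 had 16911 and 19834 CPM in CCl4 and 29435 and 23001 CPM in control cells (log2 -0.51 ± 0.09, SE). The median mitochondrial share of the proliferating cells was 14.2% and 16.5% in the CCl4 libraries and 13.7% and 14.7% in the control libraries. Whether RNA quality had a part in the other changes was not tested.

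Of the 35 genes, 11 passed whichever library was left out: Sycn, Ttr, Hao2 and Adh1 among those higher, and Il31ra, Ly6a, Nkain2, Peak1, Igha, Igkc and Gm42418 among those lower. Without CCl4 library 1, 13 no longer passed, with edgeR adjusted p from 0.0591 to 0.995: B3gnt7, Cd24a, Chordc1, Cyp2c55, Eef1a1, Gsdmc2, Hist1h4c, Muc2, Nxpe2, Plbd1, Psmb9, Sprr1a and Timm13. Without CCl4 library 2, 8 no longer passed, with edgeR adjusted p from 0.0885 to 0.527: Chordc1, Mptx1, Nxpe2, Psmb10, Psmb9, Timm13, Wdr89 and Zfp791. Without control library 1, 13 no longer passed, with edgeR adjusted p from 0.0668 to 0.217: AW112010, Apol10a, Camk1d, Chordc1, Eef1a1, Gm26917, Hist1h4c, Mptx1, Muc2, Nxpe2, Plbd1, Psmb9 and Wdr89. Without control library 2, 8 no longer passed, with edgeR adjusted p from 0.0718 to 0.186: Cd24a, Chordc1, Cyp2c55, Hist1h1a, Jchain, Taco1, Wdr89 and Zfp791. All 35 had the same direction in these 4 fits, in which the lone library of a group is assumed to vary like those of the other.

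The third question was whether these changes belonged to dividing cells. Non-cycling crypt cells of the same 4 libraries were fitted alone and jointly with the proliferating ones, with the library as a block. Alone, 40 of 14167 genes passed in the non-cycling cells, which is 0.282%. Of the 35 genes that passed in proliferating cells, 33 had the same direction in non-cycling cells, and 9 also passed there. Among the 9 were Mptx1, Hao2, Adh1 and Gsdmc2, and Muc2 and Cyp2c55 of the selection. Both classes come from the same 4 libraries. Sycn had 1310 and 1462 CPM in CCl4 non-cycling cells and 722 and 528 CPM in control non-cycling cells, a log2 change of 1.15 beside 0.97 in proliferating cells. Il31ra had a log2 change of -1.55 in non-cycling cells beside -1.43 in proliferating cells. Psmb8, which missed the threshold in proliferating cells, had a log2 change of -1.28 in non-cycling cells (edgeR adjusted p = 0.00590).

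**Figure D5:**
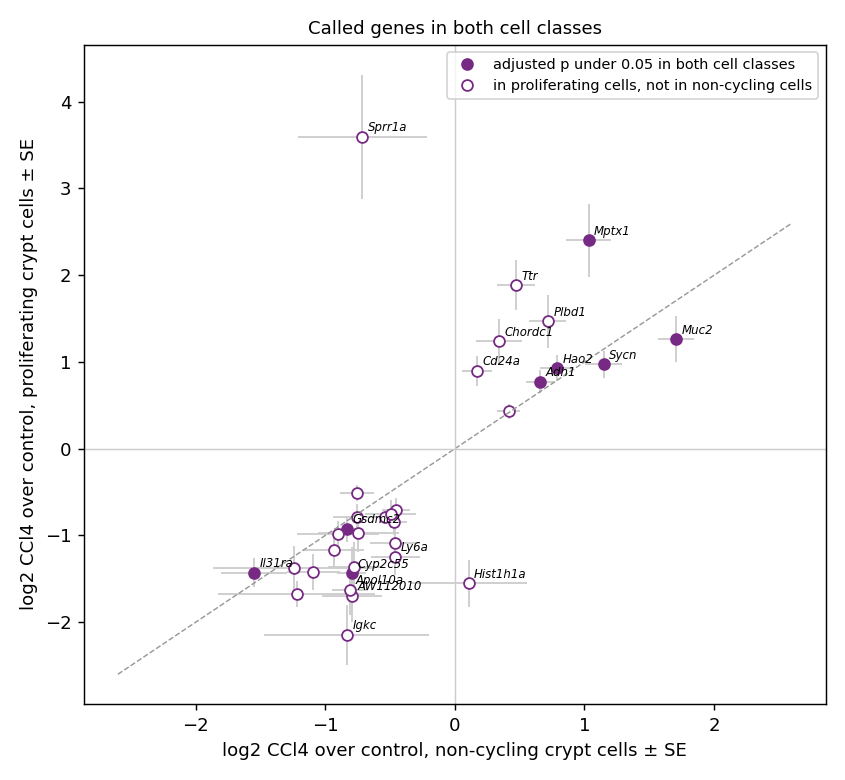
Log2 change of CCl4 over control with standard errors in proliferating crypt cells (vertical axis) and non-cycling crypt cells (horizontal axis), for the 33 genes that passed in proliferating cells and had more than 3 counts over the control libraries. Both axes come from the same 4 libraries, filled points also passed in non-cycling cells, and the dashed line marks equal change. Sprr1a lies far from the line, with changes of 3.60 and -0.71.

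In the joint fit, the change differed between the cell classes for 2 of 12999 genes, 0.0154%. The unadjusted p was under 0.05 for 648 of the 12999, near the share that this threshold gives when no gene differs. Sprr1a, a small proline-rich protein of stressed epithelium, had 97 and 28 counts in CCl4 and 4 and 0 counts in control proliferating cells, a ratio of 13.6 after scaling to the library totals (95% counting interval 5.17 to 50.6). In non-cycling cells it had 44.9 and 24.4 CPM in CCl4 and 93.6 and 19.9 CPM in control libraries, which overlap. Without CCl4 library 1 its log2 change in proliferating cells was 2.87 (edgeR adjusted p = 0.995). The difference in log2 change was 4.35 ± 0.58 (SE, edgeR adjusted p = 0.00323). Ddc, the enzyme that makes dopamine and serotonin from amino acid precursors, had 66.7 and 78.7 CPM in CCl4 and 51.8 and 45.9 CPM in control proliferating cells (log2 0.56, edgeR adjusted p = 0.467). In non-cycling cells it had 122 and 155 CPM in CCl4 and 256 and 232 CPM in control libraries (log2 -0.82, edgeR adjusted p = 0.0471). Its difference was 1.43 ± 0.22 (SE, edgeR adjusted p = 0.0185). Ddc is also made by enteroendocrine cells. In the non-cycling cells 3 of 8 enteroendocrine markers passed, all lower in CCl4, beside 0.282% of all genes tested there. The part of those cells in the difference was not tested.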

How the data were processed

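Per the labels' protocols, enzymes freed the cells of the colon and a droplet method barcoded their polyadenylated RNA. The deposited files give whole-number counts for each gene in each barcode, and per the file headers the tool was PISA v0.12b. The submitters' processing notes name GRCm38 as build. No aligner is named in the sources used here. The smallest barcodes in the deposited counts held 1001 or 1002 counts, so shallower ones are absent. Of 46509 barcodes, 38852 passed a minimum of 200 genes and a maximum of 25% mitochondrial counts. Gene positions came from GENCODE M21, which held 98.3% of the 29897 symbols.

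Raw counts were summed over the member cells of each library and tested with edgeR 4.0.16 in R 4.3.3 (quasi-likelihood, two-sided, TMM factors, filterByExpr, treatment as the only term, Benjamini-Hochberg over all tested genes). Levels of single genes are CPM on TMM-scaled library sizes. Summed levels of gene lists are CPM on the raw summed counts, without TMM factors. The SD of a level is between libraries and the SE is of the log2 change. Differences between cell classes used a treatment by class term with library as a block. With changes planted in simulated counts of 9647 genes, 43 of 100 genes with 2-fold and 86 of 100 with 3-fold changes were recovered, with 1 false call. The simulation gave every gene the same dispersion and planted no changes in the least abundant genes. It thus leaves out the unequal spread of real genes between libraries and does not measure the error of the calls above. Scrublet in scanpy 1.11.5 scored doublets, and all were kept in the main analysis, while an alternative left out the highest 6% of each library. Barcode names are numbered within each library, so 12 names recurred among the selected cells of different libraries, but 0 cells had the profile of a cell in another library.

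The library numbers are not stated to pair libraries, and deviations of same-numbered libraries correlated at -0.0172. The cells, gene lists and tests were chosen with earlier results of these data known. Named were called genes of at least 50 CPM by size of change (9 higher and 12 lower), the 2 leading members of lists with a called gene, the genes of the selection, and the 10 most abundant genes of the replication, mitosis and stem-cell lists. Other named genes were added after their values were seen, among them B3gnt7, Nxpe2, Psmb8, Tap1, Irf1, Hist1h4h, Hist1h1e, H2afz, Clca3b, Peak1, Gm42418 and Gm26917. Alternatives were DESeq2 1.42.0, its size factors, no low-count filter, a replicate block, other cell limits, thinning to 2000 counts and leaving out each library.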

Additional observations from a re-analysis of the deposited data

Results flagged for a closer look

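For 2 genes the change with CCl4 differed between proliferating and non-cycling crypt cells of the same libraries, by the treatment by class term of edgeR. Sprr1a had a log2 change in proliferating cells that exceeded that in non-cycling cells by 4.35, with 38.8 and 17.3 CPM in CCl4 and 4.50 and 0 CPM in control proliferating cells. Its own log2 change in proliferating cells, 3.60, passed in 8 of 13 alternatives, and not with DESeq2, at least 4 proliferation genes, thinning, dropped goblet and mature limits (0.36) or without CCl4 library 1 (2.87). Without 1 library the difference was 4.08 to 8.88 and passed each time, with both extremes set by leaving out a control library. Ddc had a difference of 1.43, higher in CCl4 than in control libraries among proliferating cells and lower among non-cycling cells. With no library block, 0 of the 2 passed.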

How the results depend on the processing

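Against 35 genes (13 higher, 22 lower), DESeq2 gave 16 (4 and 12), no low-count filter 90 (40 and 50), and cells thinned to 2000 counts 1 (0 and 1), with 2367 genes left to test. The replicate block gave 71 (29 and 42), and all 35 were among them. Leaving out 1 library gave 38 to 55 genes, 10 to 24 higher and 27 to 40 lower. Without control library 1 it was 50 and without control library 2 it was 55. Stricter limits of 500 genes and 10% mitochondrial counts gave 29 (4 and 25), dropping the goblet and mature limits 33 (8 and 25), and at least 4 proliferation genes 45 (15 and 30). DESeq2 retained 12 of the 35 calls, the stricter limits 16 of 32 tested, the dropped limits 17, and the removal of doublet candidates 31. Igha passed in all 13 alternatives, and Il31ra and Gm42418 in 12. Hist1h1a passed in 9, not with DESeq2, at least 4 proliferation genes, thinning or without control library 2. Hist1h4c also passed in 9, not with DESeq2, thinning, or without CCl4 library 1 or control library 1. Muc2 turned to a log2 change of -0.0929 without goblet and mature limits. The histone median was -0.21 after thinning and -1.36 with the stricter limits. Genes that differed between cell classes numbered 2, against 22 with no low-count filter, 0 with no library block, and 9 to 58 without 1 library, with 58 without control library 1. The difference in share of proliferating cells was -0.42 percentage points of epithelial cells, -0.81 to -0.03 without 1 library, and 0.688 of all kept cells, of which epithelial cells were a larger part in the CCl4 libraries. The other causes were not tested. Depth limits the control sums most, at 907764 and 886861 counts.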
